A study of Homo sapiens with 24 samples.

Results

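The aminoacyl-tRNA synthetase genes were examined in the RNA of HEK293T cells, an established human embryonic kidney line, after a change in O-GlcNAc, a sugar that cells attach to serine and threonine residues of nuclear and cytosolic proteins. Cells received OSMI-2 at 10 µM, which blocks OGT, the enzyme that adds O-GlcNAc, or TMG at 5 µM, which blocks OGA, the enzyme that removes it. Each drug was given for 2 h or 6 h beside DMSO, the solvent, and each drug and time had DMSO libraries of its own. All groups carried the same unmodified line in fresh medium, and no other agent or allele is named in the labels. Every group had 3 libraries of polyadenylated RNA except OSMI-2 at 6 h, for which 2 were analysed here, so 23 libraries were used. The series asks what lowering or raising O-GlcNAc does to mRNA levels and to intron detention. Members were chosen by gene symbol from a list of 36, of 20 cytosolic and 16 mitochondrial enzymes. Of these, 34 had a gene group of their own among 13236 groups in the count tables, namely 20 cytosolic and 14 mitochondrial ones; MARS2 and SARS2 were not analysed here. The 34 genes held 713 of 164219 bins (the pieces of exon or intron in which the authors counted reads), and 48 of the 4769 bins marked as detained introns.

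An aminoacyl-tRNA synthetase joins one amino acid to the transfer RNAs that read its codons, and so supplies the charged tRNAs from which ribosomes build protein. Most amino acids have a cytosolic enzyme and a separate mitochondrial enzyme, both encoded in the nucleus; in the symbols used here the mitochondrial enzyme ends in 2. GARS and KARS serve both compartments, EPRS joins glutamate and proline to their tRNAs in 1 chain, and FARSA and FARSB are the subunits of the cytosolic phenylalanine enzyme. Several cytosolic enzymes, among them EPRS, LARS, IARS, MARS, QARS, KARS, RARS and DARS, form a large multi-synthetase complex, and many cytosolic synthetase genes are known targets of ATF4, the transcription factor of the amino acid response. A detained intron is an intron that stays unspliced in an otherwise finished, polyadenylated transcript, which is then held in the nucleus.

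The known ATF4 element joins a C/EBP site to an ATF site and reads TGATGNAA, with N any base. It was searched on both strands of the 300 bases around each transcription start, from 250 before to 50 after it, in RefSeq's promoter table for GRCh38.p14, in which 28 of the 34 members were matched. It stood in 8 of the 28 members (28.6%), in 7 of 16 cytosolic genes (43.8%) and 1 of 12 mitochondrial genes (8.33%), against 1217 of 27305 genes with a promoter in the table (4.46%). The 8 sites are shown because they set apart the members for which an ATF4 element near the start can be read from sequence; each run is 30 bases in the sense of its gene, with the matched bases in capitals.
AARS, chr16:70289675-70289704, minus strand: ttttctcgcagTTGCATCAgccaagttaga
CARS, chr11:3057407-3057436, minus strand: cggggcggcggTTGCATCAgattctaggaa
GARS, chr7:30594834-30594863, plus strand: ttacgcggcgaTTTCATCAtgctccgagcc
IARS, chr9:92293692-92293721, minus strand: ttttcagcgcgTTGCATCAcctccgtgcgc
MARS, chr12:57488053-57488082, plus strand: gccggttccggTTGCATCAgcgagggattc
NARS, chr18:57621804-57621833, minus strand: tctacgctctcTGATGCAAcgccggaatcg
TARS, chr5:33440956-33440985, plus strand: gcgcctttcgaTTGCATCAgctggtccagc
YARS2, chr12:32756076-32756105, minus strand: atccacactgcTGATGGAAaaattaagttt
In 6 of the 8 genes the element was on the strand opposite to the gene, and in NARS and YARS2 on the gene's own strand. A match describes these letters in this window and is not evidence of binding.

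The smallest library held 39.5 M counts and the largest 100.2 M. Of the genes that mark the line, NEFL was at 15.7 to 31.3 CPM (counts scaled to a common library size) and LIN28B at 4.06 to 113, whereas NEFM (0.30 to 2.20 CPM) and PAX2 (1.21 to 4.20 CPM) were low; no library was at 0 for any of them. Of the markers of other cells, COL1A1 was at 6.28 to 20.4 CPM and COL3A1 at no more than 0.793 CPM, and PTPRC, CD3E, ALB and PECAM1 were not analysed here. The experiments differed in base composition. Genes above the median GC content (48.3% over 10430 genes) held 69.1% to 76.8% of gene counts in 10 of the 11 libraries of the OSMI-2 experiment, 62.8% in the remaining one, DMSO 6 h library a, and 44.9% to 49.1% in the 12 libraries of the TMG experiment. Experiment, library preparation and base composition cannot be told apart, so drug effects were tested within an experiment, and results that rest on DMSO 6 h library a are given with and without it.

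Without drug, the cytosolic synthetases were among the more abundant members and the mitochondrial ones among the scarcer. The level used for this order was the median over a gene's bins of CPM per kb of bin, and the value given is the median over the 12 DMSO libraries. Pooled over both experiments, YARS, the tyrosine enzyme, stood first at 260 CPM per kb (range 235 to 348), followed by FARSA at 232 (169 to 442), SARS at 204 (142 to 237), QARS at 200 (143 to 308) and MARS at 188 (150 to 291). These neighbours do not differ beyond their spread, since their ranges overlap, and FARSA stood first in the OSMI-2 experiment alone (344) and IARS in the TMG experiment alone (251). The median was 93.9 CPM per kb over the 20 cytosolic genes and 26.9 over the 14 mitochondrial genes. IARS2, the mitochondrial isoleucine enzyme, stood among the cytosolic genes at 108 (31.3 to 208), and CARS, the cysteine enzyme, was the lowest cytosolic gene at 39.9 (29.2 to 55.0). At the low end were FARS2 at 7.58 (4.89 to 11.8), WARS2 at 7.89 (3.06 to 15.2) and PARS2 at 1.63 (1.01 to 1.96), the last resting on 1 bin.

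The wide ranges of some genes came from the difference between the experiments. EPRS was at 19.5 CPM per kb in the 6 DMSO libraries of the OSMI-2 experiment and at 172 in the 6 of the TMG experiment, DARS at 21.6 and 143, and LARS at 24.5 and 140. For SARS the corresponding levels were 205 and 192, and for YARS 301 and 249. IARS (62.1 and 251), NARS (21.4 and 117), RARS (37.4 and 127) and IARS2 (45.4 and 159) shifted the same way. In 15 of the 34 members every DMSO library of the TMG experiment was above every one of the OSMI-2 experiment, and in 7 it was below, so the pooled order holds for neither experiment alone.

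**Figure D1:**
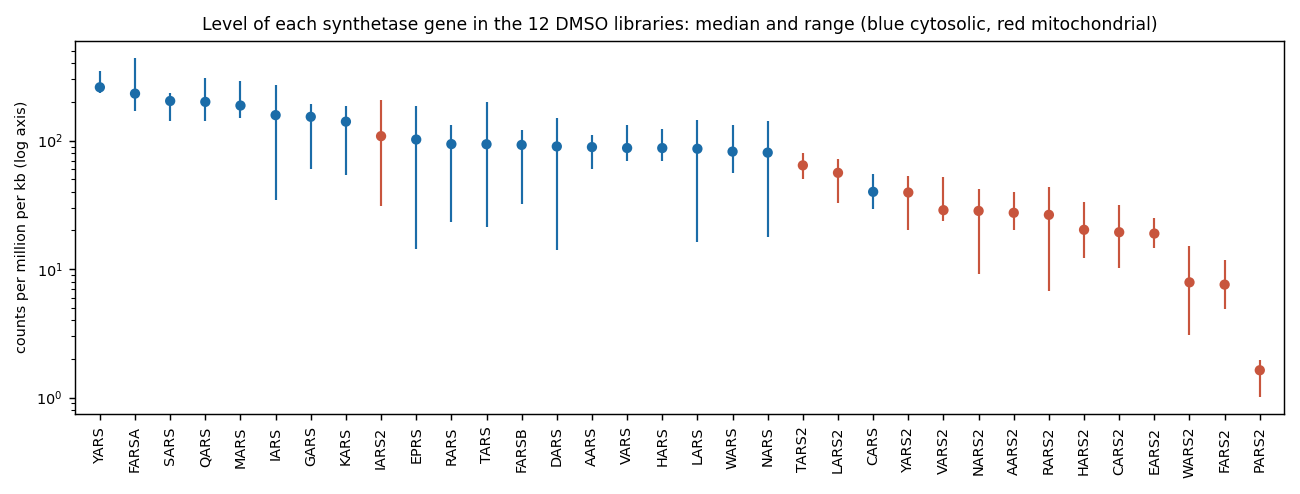
Level of each of the 34 synthetase genes without drug, in CPM per kb on a log axis; points are the median and lines the lowest to highest of the 12 DMSO libraries of both experiments, in blue for cytosolic and red for mitochondrial enzymes. The cytosolic genes lie mostly to the left, with medians from 39.9 to 260, and the mitochondrial genes IARS2 (108), TARS2 (64.2) and LARS2 (56.2) stand above CARS, the lowest of them.

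The first question was whether blocking OGT changed synthetase mRNA. After 2 h of OSMI-2 no synthetase gene passed the test: 0 of 34 had an adjusted p under 0.05 by edgeR's quasi-likelihood test with Benjamini-Hochberg adjustment over all 12343 genes tested, 0 had an unadjusted p under 0.05, and DESeq2 called 0. Over all genes 0 passed (0%). Most estimates lay below 0 (16 of 20 cytosolic and 9 of 14 mitochondrial genes), with medians of -0.17 and -0.07 on the log2 scale against -0.01 over all genes tested. In bulk RNA, less RNA in every cell and fewer cells holding it cannot be told apart.

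LARS, the leucine enzyme, had the largest estimate of a cytosolic gene at 2 h of OSMI-2. Its level, in CPM of the TMM-scaled library as for all CPM beside a fold change, was 86.4, 112 and 54.5 in the DMSO libraries and 63.7, 74.4 and 49.0 with OSMI-2. The groups overlapped, and the log2 fold change was -0.43 ± 0.25 (SE; adjusted p = 1). Among mitochondrial genes NARS2, the asparagine enzyme, was at 22, 23.3 and 13.4 CPM in DMSO and at 14.5, 20 and 13.7 with OSMI-2 (log2 fold change -0.28 ± 0.23). Both genes were as low in DMSO library c as in the treated libraries. The 8 genes of the multi-synthetase complex had a median of -0.34, with 7 of 8 below 0. The 12 cytosolic genes outside it had a median of -0.16, with 9 of 12 below 0. The difference was not tested.

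After 6 h of OSMI-2 no synthetase gene passed the test. Several synthetase mRNAs had higher levels in both treated libraries than in any DMSO library. How many of all genes did so was not counted, and 7539 of 12484 genes tested had estimates above 0. In simulated data, with 50 genes changed at each fold tried, this comparison called 10% of 2-fold rises and 16% of 2-fold falls. In the data 617 of all genes tested passed, so the adjusted threshold was stricter in the simulation. Changes of that size may be missed here, at a rate that the simulation does not give. Of 34 members, 0 were called by edgeR (4.94% of all genes tested, 2.57% higher and 2.37% lower), 8 had an unadjusted p under 0.05, all with positive estimates, and DESeq2 called 0. Estimates were above 0 for 14 of 20 cytosolic genes (median 0.21) and 7 of 14 mitochondrial genes (median -0.03), against a median of 0.15 over all genes tested. Scaling moves these medians: with TMM over genes alone that of all genes was -0.09 and that of the cytosolic members -0.03, and with median-of-ratios scaling they were 0.30 and 0.37, so no direction is given to the family as a whole.

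The member with the largest estimate was GARS, the glycine enzyme of cytosol and mitochondria. GARS was at 241, 149 and 196 CPM in the DMSO 6 h libraries and at 399 and 350 CPM with OSMI-2, so both treated libraries lay above all DMSO libraries (log2 fold change 0.94 ± 0.32, adjusted p = 0.0593). AARS, the alanine enzyme, was at 204, 280 and 300 CPM in DMSO and at 494 and 444 with OSMI-2 (0.85 ± 0.32, adjusted p = 0.0951). The mitochondrial gene with the largest estimate was WARS2, the tryptophan enzyme, at 9.31, 5.61 and 7.85 CPM in DMSO and at 13.0 and 15 with OSMI-2 (0.88 ± 0.35, adjusted p = 0.108). In each of these 3 genes the groups were apart and the spread among the DMSO libraries was wide.

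The other 5 members with an unadjusted p under 0.05 at this time were 4 cytosolic genes and IARS2. FARSA was at 296, 524 and 548 CPM in DMSO and at 743 and 811 with OSMI-2 (0.77 ± 0.34), and VARS, the valine enzyme, at 271, 460 and 484 against 648 and 712 (0.75 ± 0.33). In both genes DMSO library a was the lowest library. FARSB, the partner subunit of FARSA, was at 122, 69.8 and 73.2 CPM in DMSO and at 133 and 149 with OSMI-2 (0.68 ± 0.30). EPRS was at 158, 67.5 and 81.7 CPM against 159 and 163 (0.65 ± 0.31), and IARS2 at 155, 77.3 and 87.4 against 157 and 167 (0.61 ± 0.30). For these genes DMSO library a was the highest and came close to the treated libraries. HARS2, the mitochondrial histidine enzyme, was the member with both treated libraries below all DMSO libraries, at 54.0, 47.3 and 64.1 CPM against 42.4 and 31.4 (-0.58 ± 0.31, adjusted p = 0.243).

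DMSO library a, which stands apart in base composition, and the fit used both change the calls at 6 h of OSMI-2. Without it 12 members passed the test, all higher: AARS (log2 fold change 0.74), AARS2 (0.41), DARS (0.76), EPRS (1.16), FARSA (0.58), FARSB (1.02), GARS (1.17), IARS2 (1.02), RARS (0.46), TARS (0.92), VARS (0.57) and WARS2 (1.11). In that fit 34.2% of all genes tested were higher and 8.21% lower, so the share of members is near the background. With the GC trend of each library removed, 7 members passed, AARS, EPRS, FARSB, GARS, IARS2 and WARS2 higher and HARS2 lower, beside 11.2% of all genes higher and 10.9% lower. A fit of all libraries of the series called 15 members, all higher, beside 39.5% of all genes higher and 7.54% lower, again near the background.

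**Figure D2:**
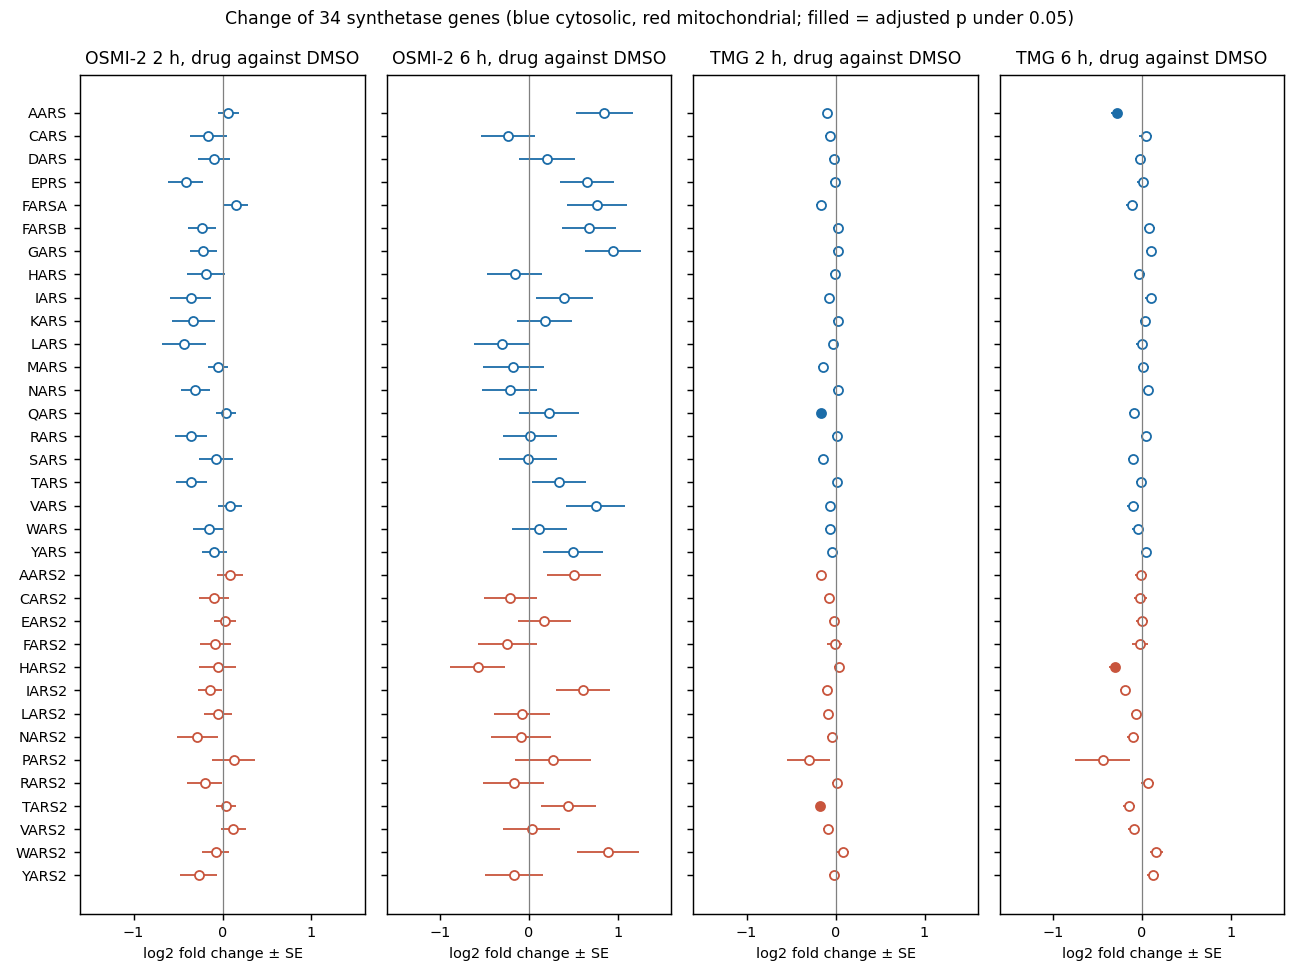
Log2 fold change of drug over DMSO ± SE for the 34 synthetase genes in the 4 drug comparisons, with cytosolic genes in blue, mitochondrial genes in red and filled points for adjusted p under 0.05. Estimates spread from -0.58 to 0.94 at 6 h of OSMI-2 with no filled point, and lie near 0 with small errors for TMG, where QARS and TARS2 at 2 h and AARS and HARS2 at 6 h are filled.

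Blocking OGA changed few members, and by little. After 2 h of TMG 2 of 34 fell and 0 rose (6.67% of all genes tested fell, 1.25% rose and 7.91% changed either way), so the members' share is near the background. QARS, the glutamine enzyme of the complex, was at 330, 331 and 309 CPM in DMSO and at 296, 288 and 285 CPM with TMG. It fell by 0.16 ± 0.05 on the log2 scale (SE; edgeR adjusted p = 0.049). TARS2, the mitochondrial threonine enzyme, was at 132, 126 and 126 CPM in DMSO and at 115, 107 and 119 with TMG. It fell by 0.17 ± 0.05 (adjusted p = 0.0384). In both genes all 3 TMG libraries lay below all 3 DMSO libraries.

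Both calls were close to the threshold. Neither held without DMSO library b or without any 1 of the 3 TMG libraries, and that of TARS2 was also lost without DMSO library a (adjusted p from 0.0512 to 0.284 in these fits); DESeq2 and the fits with TMM over genes alone, with the GC trend removed or with all libraries together called 0 members. FARSA had the largest estimate of a cytosolic gene, at 348, 321 and 314 CPM against 300, 278 and 298 (-0.17 ± 0.05, adjusted p = 0.0509). PARS2, the mitochondrial proline enzyme and the scarcest member, had the largest mitochondrial one, at 0.840, 0.850 and 0.684 CPM against 0.703, 0.527 and 0.698 (-0.30 ± 0.24, adjusted p = 0.484).

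After 6 h of TMG AARS and HARS2 fell. Again 2 of 34 members passed, both lower (4.84% of all genes tested fell, 1.19% rose and 6.03% changed either way). AARS was at 261, 235 and 248 CPM in DMSO and at 210, 195 and 205 CPM with TMG. It fell by 0.29 ± 0.06 on the log2 scale (edgeR adjusted p = 0.0106). HARS2 was at 49.8, 51.0 and 49.3 CPM in DMSO and at 39.7, 41.4 and 40.1 with TMG. It fell by 0.31 ± 0.07 (adjusted p = 0.0123). The libraries of the groups did not overlap in either gene, and the gap of HARS2 between groups was several times the spread within them.

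The call of AARS was lost without TMG library b (adjusted p = 0.098) or c (0.0544), and that of HARS2 without TMG library a, b or c (0.0590 to 0.0708), and both were lost in a fit of all libraries (adjusted p = 1); each kept its direction. HARS2 starts next to HARS on the opposite strand, and their models overlap in the tables' coordinates (chromosome 5, HARS 140053487 to 140071312, HARS2 140071019 to 140078893), where reads may be counted in either. HARS itself was at a log2 fold change of -0.03 ± 0.06. The mitochondrial gene with the largest estimate was PARS2, at 0.768, 0.427 and 0.60 CPM against 0.396, 0.555 and 0.378 (-0.45 ± 0.31, adjusted p = 0.434). IARS2 stood just outside the threshold, at 514, 558 and 537 CPM against 483, 466 and 458 (-0.19 ± 0.06, adjusted p = 0.0519).

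**Figure D3:**
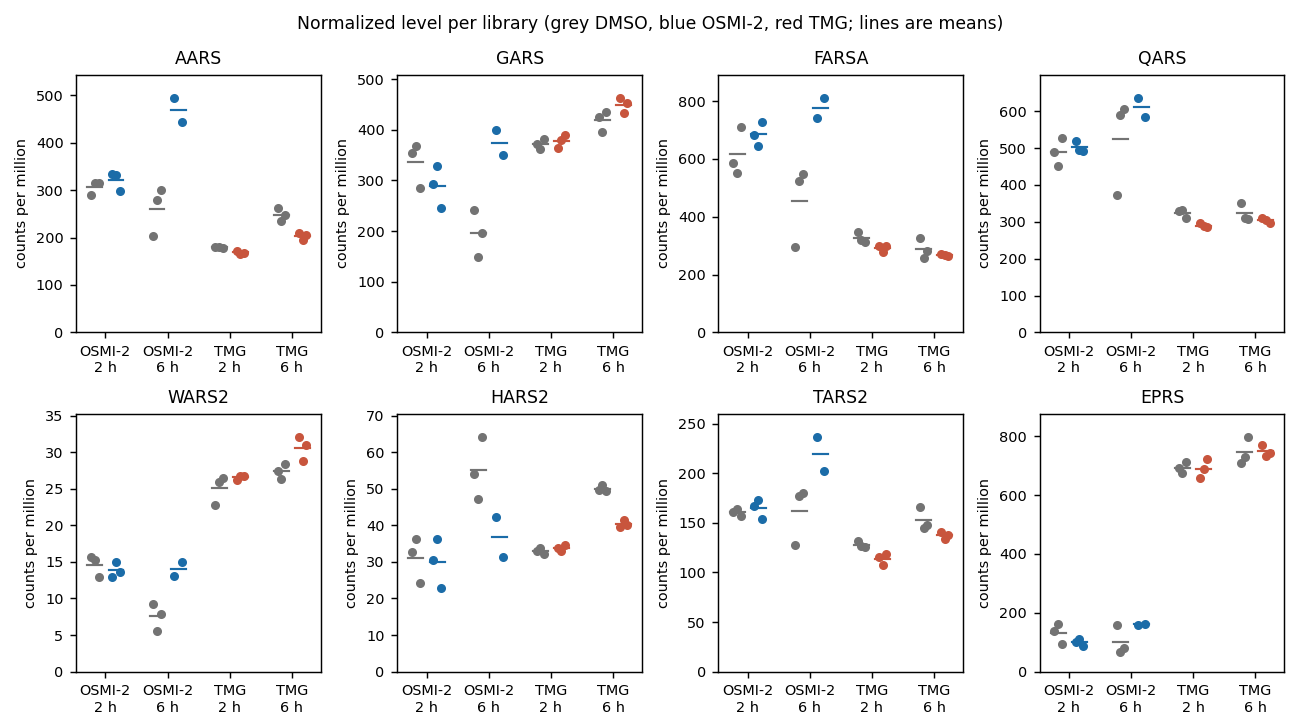
Level per library of AARS, GARS, FARSA, QARS, WARS2, HARS2, TARS2 and EPRS, in CPM of the TMM-scaled library from 0 upward, for DMSO (grey), OSMI-2 (blue) and TMG (red) in each comparison, with lines at the group means. With OSMI-2 for 6 h GARS lies at 399 and 350 above DMSO at 149 to 241, and with TMG for 6 h AARS lies at 195 to 210 below DMSO at 235 to 261.

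The effects of the drugs were then compared in 1 fit, as the difference between the OSMI-2 and the TMG log2 fold changes. At 6 h the difference was positive for 7 of 34 members and negative for 0 (16.9% of all genes tested were higher and 2.97% lower, 19.9% in all; median of all genes 0.36). These were AARS with a difference of 1.29 ± 0.24 (SE; edgeR adjusted p = 0.0108), FARSA (1.04 ± 0.30), VARS (1.0 ± 0.29), GARS (1.0 ± 0.26), IARS2 (0.96 ± 0.31), WARS2 (0.88 ± 0.27) and TARS2 (0.74 ± 0.24), the last 6 with adjusted p from 0.0203 to 0.0432. Drug and experiment cannot be told apart in this contrast. AARS was the member with the largest difference, and its own effects had opposite signs, 0.85 with OSMI-2 and -0.29 with TMG. The count of members was 0 without OSMI-2 6 h library b, 1 (AARS) without OSMI-2 library a or any of 4 single TMG-experiment libraries, and 29 without DMSO 6 h library a of the OSMI-2 experiment, where 73.0% of all genes were higher and 2.02% lower; with TMM over genes alone it was 1, again AARS.

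At 2 h the drugs' effects differed in 0 of 34 members by edgeR (0% of all genes; 0 members had an unadjusted p under 0.05 and DESeq2 called 0). Between 2 h and 6 h, the OSMI-2 effect differed in 0 members (0.111% of all genes, 0.0158% higher and 0.0950% lower; 6 had an unadjusted p under 0.05 and DESeq2 called GARS) and the TMG effect in 0 (0.0242% of all genes, 0.0161% higher and 0.00807% lower; 4 had an unadjusted p under 0.05 and DESeq2 called HARS2). The change of AARS and HARS2 at 6 h of TMG is thus not shown to differ from that at 2 h, when HARS2 was at 32.9, 33.8 and 32.1 CPM in DMSO and at 33.9, 32.9 and 34.6 with TMG. Without DMSO 6 h library a of the OSMI-2 experiment, the OSMI-2 effect over time was called in 7 members: AARS, EPRS, FARSB, GARS, IARS2, TARS and WARS2. The share of all genes in that fit is not given here, so this count is not read as a result about the members.

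The DMSO libraries of 6 h and 2 h were compared within each experiment, and some members changed in opposite directions in the OSMI-2 and TMG experiments. These comparisons share their DMSO libraries with the drug comparisons. In the OSMI-2 experiment 6 of 34 members were lower at 6 h than at 2 h and 0 were higher (14.0% of all genes lower, 4.59% higher, 18.5% in all; median of all genes -0.25). WARS2 was at 18.6, 18 and 16.4 CPM at 2 h and at 8.38, 5.17 and 7.24 CPM at 6 h, a log2 fold change of -1.35 ± 0.29 (edgeR adjusted p = 0.00203). GARS was at 421, 435 and 364 CPM at 2 h and at 217, 137 and 180 at 6 h (-1.19 ± 0.27), and FARSB at 194, 187 and 154 against 110, 64.3 and 67.5 (-1.15 ± 0.27). All 3 genes were higher in every 2 h library than in any 6 h library, and their calls held without any 1 library. FARSA (-0.85), KARS (-0.89) and TARS (-0.81) fell too. Their calls were lost in 4 or 5 of the 6 fits that each left out 1 library, the count running from 3 to 17 members (17 without DMSO 6 h library a, 3 without DMSO 2 h library a, 2 h library b or 6 h library b), and with TMM over genes alone 2 calls, GARS and WARS2, remained. Of the 3 members with the largest estimates at 6 h of OSMI-2, GARS and WARS2 were also among these 6, and both contrasts use the same DMSO 6 h libraries.

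In the TMG experiment more members changed with time, in both directions. Of 34 members 12 were higher and 6 lower at 6 h (16.3% and 29.6% of all genes, 45.9% in all). HARS2 was at 33.1, 34 and 32.3 CPM at 2 h and at 48.9, 49.97 and 48.5 at 6 h (0.57 ± 0.07), TARS, the threonine enzyme, at 321, 312 and 315 against 425, 428 and 451 (0.46 ± 0.07), and AARS at 181, 182 and 180 against 257, 230 and 244 (0.43 ± 0.07). The other rises were CARS (0.29), KARS (0.19), MARS (0.32), NARS (0.28), AARS2 (0.27), IARS2 (0.39), LARS2 (0.32), TARS2 (0.22) and YARS2 (0.24), so 6 of 14 mitochondrial and 6 of 20 cytosolic genes rose. WARS, the tryptophan enzyme of the cytosol, fell most, from 297, 291 and 286 CPM at 2 h to 196, 169 and 183 at 6 h (-0.67 ± 0.07). SARS (-0.35), IARS (-0.31), LARS (-0.24), FARSA (-0.22) and VARS2 (-0.21) fell as well. KARS and TARS, which rose here, were among the members that fell in the OSMI-2 experiment, whereas FARSA fell in both. Why the experiments differed was not tested. AARS and HARS2, which fell with TMG at 6 h, were thus 2 of the genes that rose with time in DMSO, and the 2 contrasts share the DMSO 6 h libraries. In a fit of all libraries of the series together, 6 of these 18 calls remained (AARS, HARS2, IARS2, LARS2, MARS and WARS).

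Genes that act with the synthetases were counted from a list of 20 (tRNA export, elongation factors, complex scaffolds and mitochondrial charging factors), of which 17 were tested. With OSMI-2 0 of 17 passed at either time by edgeR (0 at 2 h and 6 at 6 h had an unadjusted p under 0.05), with TMG 0 of 17 at 2 h, and 1 of 17 at 6 h, SEPSECS, the enzyme that makes selenocysteine on its tRNA, which fell by 0.47. Of 22 genes of the amino acid response under ATF4, 21 were tested. At 2 h of OSMI-2 0 of 21 passed, and 0 had an unadjusted p under 0.05. With OSMI-2 at 6 h 2 rose, CHAC1 (1.56), a glutathione-degrading enzyme, and DDIT4 (0.95), an inhibitor of mTORC1 signalling, beside 2.57% of all genes. The median of the list was 0.43 against 0.15 over all genes, with 17 estimates above 0 and 4 below. Those below were DDIT3 (-0.88), CTH (-0.71), MTHFD2 (-0.38) and VLDLR (-0.04), and ATF4 itself was at 0.37. None of these passed. With TMG at 2 h 5 fell, beside 6.67% of all genes: PHGDH (-0.16) and SHMT2 (-0.20) of serine and glycine metabolism, the amino acid transporter subunits SLC3A2 (-0.20) and SLC7A5 (-0.23), and TRIB3 (-0.25), a target and inhibitor of ATF4; at 6 h 0 of 21 passed, with 5 at an unadjusted p under 0.05. The 12 synthetases widely described as ATF4 targets had medians of 0.23 at 6 h of OSMI-2 (7 of 12 above 0) and 0.01 at 6 h of TMG. For the other 8 cytosolic synthetases these medians were 0.21 (7 of 8 above 0) and -0.03.

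For the 8 members that carry the ATF4 element printed above, the median log2 fold change was 0.08 at 6 h of OSMI-2 (range -0.23 to 0.94), against 0.18 for the 9 cytosolic members that were searched and lack it. With TMG at 6 h it was 0.05 (range -0.29 to 0.12) against -0.03. AARS at 6 h of TMG was the 1 call among the 8 in the 4 drug comparisons.

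Synthetase genes often held a detained intron. Of the 34 members 25 (73.5%) had at least 1 bin of that class alone, 16 of 20 cytosolic and 9 of 14 mitochondrial genes, against 23.7% of all 13236 gene groups. Of the 17 members at or above the members' median level 13 (76.5%) had at least 1, against 40.2% of the 1127 groups at or above that level. These differences were not tested. There were 42 such bins in the members, and 6 more carried another class as well: 4 in QARS and 1 each in CARS2 and VARS2. Introns are counted here by bin, and QARS_E005, QARS_E007 and QARS_E009 (94, 119 and 192 bases) are pieces of 1 detained intron. Bin widths are therefore not always intron widths. The 42 bins had a median of 892 bases, against 1882 over all bins of that class. Of the 42, 88.1% lay beyond the midpoint of the gene toward its 3′ end, against 84.6%. The longest was WARS2_E003 (chromosome 1, 119576837 to 119584886, 8050 bases), and bins are named here as in the tables, by gene and bin number, with coordinates as the tables give them (hg19 is the build named in the submitters' processing notes).

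A detained intron was tested as log2 of its count plus 1 over its gene's count plus 1 with limma, with Benjamini-Hochberg adjustment over all introns with mean counts of at least 10 for intron and gene, and is given as percent of the gene's counts outside detained introns. At 2 h of OSMI-2 none of the 37 member introns tested passed (0.0643% of all introns tested); 1 had an unadjusted p under 0.05, and edgeR on intron counts and the authors' deposited table called 0. The largest estimates were of introns with few counts. LARS_E020 was at 0.194%, 0.223% and 0.210% in DMSO (6 to 11 counts) and at 0.322%, 0.382% and 0.395% with OSMI-2 (13 to 27 counts), with no overlap (log2 change 0.72 ± 0.33, adjusted p = 0.982). RARS2_E004 was at 0.929%, 1.61% and 2.07% in DMSO and at 0.922%, 0.797% and 1.32% with OSMI-2 (-0.56 ± 0.38).

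At 6 h nearly all detained introns of the synthetases were lower with OSMI-2 than in DMSO, whose own level was higher at 6 h than at 2 h. Relative to their gene, 42 of 47 bins tested were lower and 0 higher, 26 of 31 in cytosolic and 16 of 16 in mitochondrial genes, with 89.2% of all introns tested lower and 89.4% changed either way, so the members shared a change of nearly all detained introns. Of the bins of that class alone, a count added after the data had been seen, 41 of 42 were lower. The median log2 change was -1.85 over the 47 bins, against -1.63 over all introns tested; over the bins of that class alone it was -1.97 in cytosolic and -2.08 in mitochondrial genes. Smallest among the differences that passed were CARS_E006 (-0.72 ± 0.33, adjusted p = 0.033) and CARS2_E012 (-0.78 ± 0.32, adjusted p = 0.0169). The 4 QARS bins of mixed class were at -0.07 to -0.03 and did not pass.

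Among cytosolic genes the largest difference from DMSO was in FARSB_E019 (chromosome 2, 223511716 to 223513458), which held 0.455%, 0.490% and 0.438% of the gene in DMSO and 0.0630% and 0.0360% with OSMI-2 (log2 change -3.02 ± 0.46, adjusted p = 3.08e-10), resting on 4 counts in each treated library. RARS, the arginine enzyme, has 2 detained introns close together. RARS_E009 (chromosome 5, 167922442 to 167924232) was at 1.06%, 1.18% and 0.883% in DMSO and 0.181% and 0.111% with OSMI-2 (-2.69 ± 0.40), and RARS_E005 (167921008 to 167921554) at 0.827%, 0.742% and 0.883% against 0.0904% and 0.147% (-2.58 ± 0.42). EPRS_E003, close to the 3′ end of its gene (chromosome 1, 220142465 to 220145410), was at 0.967%, 1.01% and 1.18% in DMSO and 0.25% and 0.115% with OSMI-2 (-2.57 ± 0.35). In these 4 introns the treated libraries were all under the lowest DMSO library.

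Mitochondrial genes gave differences of the same order. TARS2_E007 (chromosome 1, 150464139 to 150464886) was at 1.13%, 0.682% and 0.555% in DMSO and 0.0886% and 0.0993% with OSMI-2 (-2.91 ± 0.35, adjusted p = 5.9e-15), on 10 and 15 counts in the treated libraries. HARS2_E010 (chromosome 5, 140075787 to 140076105) was at 4.06%, 3.802% and 3.01% in DMSO and 0.247% and 1.11% with OSMI-2 (-2.63 ± 0.34), with OSMI-2 library a well below b. RARS2_E004 (chromosome 6, 88226599 to 88227763) was at 4.03%, 5.18% and 4.83% against 0.799% and 0.874% (-2.34 ± 0.38), and WARS2_E003 at 9.505%, 8.33% and 5.29% against 1.77% and 1.25% (-2.27 ± 0.39). WARS2_E003 held the largest share of its gene among the 8 introns given, and the treated and DMSO libraries were apart in all 8.

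**Figure D4:**
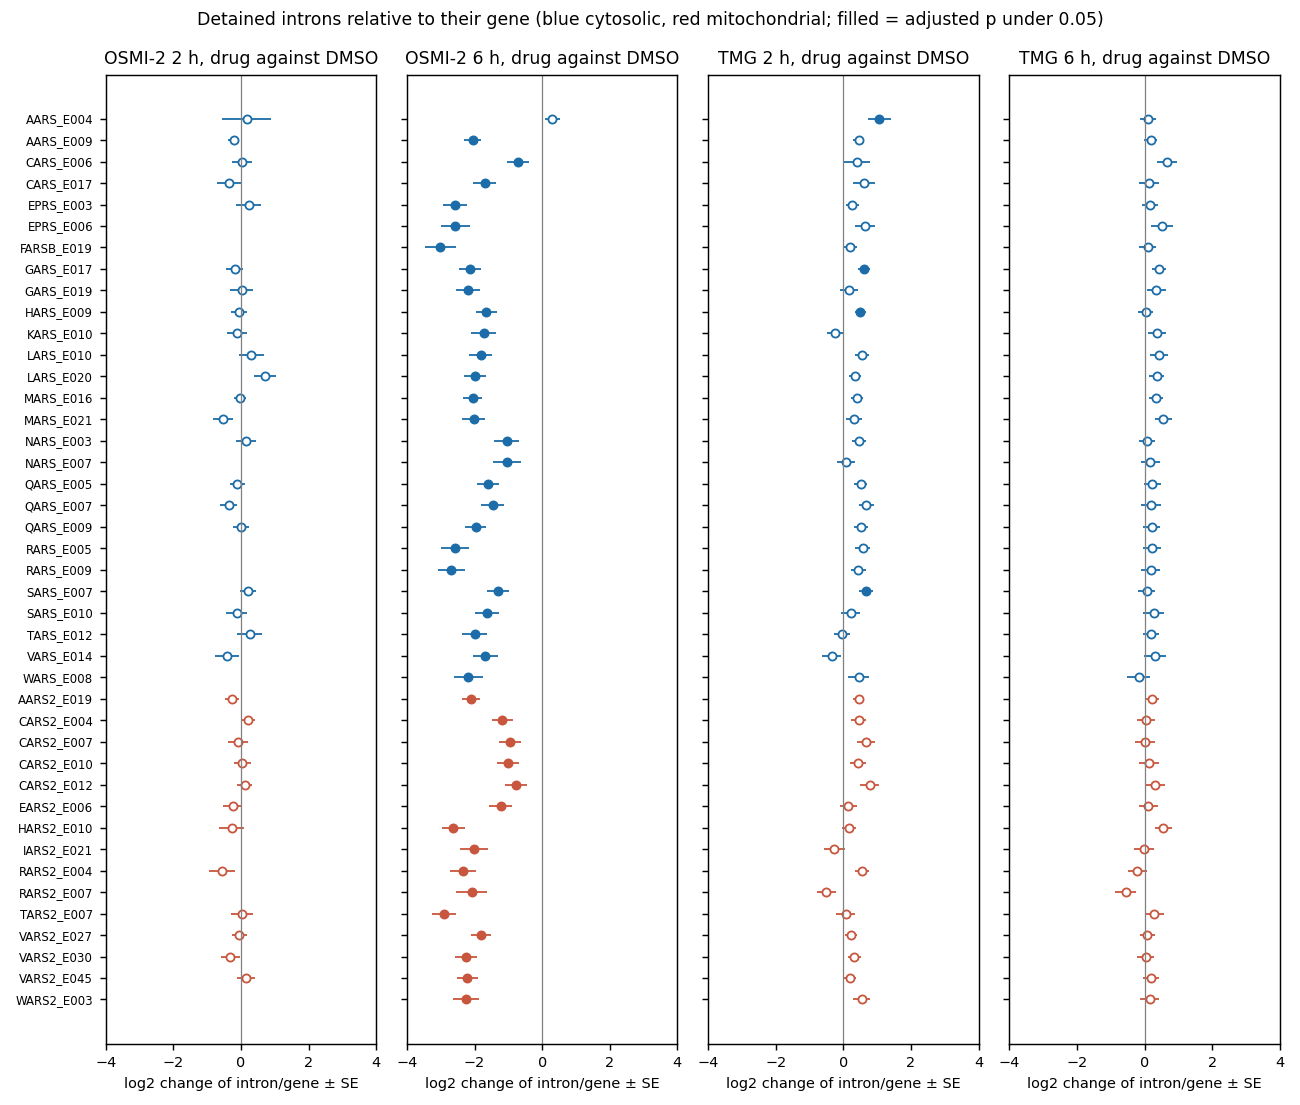
Log2 change of intron over gene ± SE, drug against DMSO, for the 42 member bins classed as detained introns alone, in the 4 drug comparisons; filled points have adjusted p under 0.05, blue is cytosolic and red mitochondrial, and bins with a mean under 10 counts have no point. At 6 h of OSMI-2 41 of 42 points are filled and lie between -3.02 and -0.72, and AARS_E004 lies at 0.30; at 2 h of TMG 4 are filled above 0.

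The exception at 6 h of OSMI-2 was AARS_E004 (chromosome 16, 70287285 to 70287616, 332 bases). It was at 3.46%, 0.925% and 3.06% of the gene in DMSO and at 2.63% and 2.66% with OSMI-2 (log2 change 0.30 ± 0.23, adjusted p = 0.206). This intron took a low or a high value in single libraries of the same group throughout the series, so its group means are not read. The neighbouring AARS_E009 had a log2 change of -2.06 ± 0.25.

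With TMG for 2 h 4 of 47 detained introns of the synthetases were higher and 0 lower (10.2% of all introns tested higher, 0.0496% lower), so their share is near the background. Estimates were above 0 for 40 of the 47 bins (median 0.40), as they were for 3474 of 4031 introns over all genes (median 0.30). GARS_E017 (chromosome 7, 30668286 to 30671063) was at 0.384%, 0.499% and 0.359% in DMSO and at 0.653%, 0.683% and 0.559% with TMG, a log2 change of 0.61 ± 0.17 (limma adjusted p = 0.0204). SARS_E007, in the serine enzyme, was at 0.165%, 0.184% and 0.178% against 0.316%, 0.271% and 0.261% (0.67 ± 0.20, adjusted p = 0.0323). HARS_E009 was at 1.44%, 1.26% and 1.61% against 1.88%, 1.93% and 2.29% (0.50 ± 0.16, adjusted p = 0.0394). In these 3 introns every TMG library lay above every DMSO library. The fourth, AARS_E004, was at 0.385%, 0.392% and 0.383% against 0.396%, 0.533% and 2.60% (1.07 ± 0.34, adjusted p = 0.0381) and rests on TMG library c, without which its change was 0.25 (adjusted p = 0.487).

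None of the 4 calls held in a fit of all libraries or in the authors' deposited table of bin usage, in which 0 of 47 member introns passed. The count was 0 without TMG library b and 1 without DMSO library a (GARS_E017) or TMG library a (AARS_E004). At 6 h of TMG 0 of 47 passed by limma (0.191% of all introns tested, 0.167% higher and 0.0239% lower), 4 had an unadjusted p under 0.05, and edgeR on intron counts called 0. The authors' table held an adjusted p for 20 of the member bins and called 0 of these. Without DMSO library b 3 passed by limma, and the share of all introns in that fit is not given here. CARS_E006 had the largest estimate, at 0.382%, 0.532% and 0.384% in DMSO and 0.513%, 0.749% and 0.836% with TMG (0.65 ± 0.30, adjusted p = 0.87), and RARS2_E007 the largest below 0, at 1.04%, 1.36% and 0.632% against 0.524%, 0.830% and 0.609% (-0.56 ± 0.30). The groups overlapped in both.

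Summed over a set of genes, the 42 bins of that class alone show the same order of groups. In cytosolic members they came to 0.397% ± 0.108 of gene counts (SD, n = 3) in DMSO at 2 h and 0.402% ± 0.125 (n = 3) with OSMI-2 at 2 h, and to 1.35% ± 0.242 (n = 3) in DMSO at 6 h and 0.596% ± 0.0455 (n = 2) with OSMI-2 at 6 h. In mitochondrial members these 4 sums were 0.960% ± 0.123, 0.916% ± 0.0596, 3.36% ± 0.496 and 0.878% ± 0.130. The sum over all genes of the series went the same way, at 0.801%, 0.777%, 2.72% and 0.849%. AARS_E004 supplied much of the cytosolic sum with OSMI-2 at 6 h. Without it, an alternative added after the data had been seen, the 4 cytosolic sums were 0.298% ± 0.0182, 0.283% ± 0.0154, 1.17% ± 0.233 and 0.310% ± 0.0453. The OSMI-2 libraries of 6 h then overlapped those of 2 h in both sets, and the DMSO libraries of 6 h lay above all other libraries of the experiment. Tested one by one between DMSO libraries of 6 h and 2 h, a test added after the data had been seen, 43 of 47 bins were higher at 6 h (88.0% of all introns tested were higher and 1.27% lower, 89.3% in all), among them all 42 of that class alone.

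In the TMG experiment the sums varied less. Cytosolic members were at 0.430% ± 0.0458 in DMSO and 0.585% ± 0.0129 with TMG at 2 h, and at 0.750% ± 0.0892 and 0.846% ± 0.0670 at 6 h (n = 3 each). Without AARS_E004 these were 0.416% ± 0.0455, 0.545% ± 0.0290, 0.659% ± 0.138 and 0.767% ± 0.0617. Mitochondrial members were at 1.30% ± 0.163 and 1.63% ± 0.180 at 2 h, and at 1.49% ± 0.202 and 1.70% ± 0.141 at 6 h. Without drug 12 of 47 bins were higher at 6 h than at 2 h (18.9% of all introns tested were higher and 0.662% lower, 19.6% in all). The mitochondrial members held a larger share of intron counts than the cytosolic ones in every group, with ranges that did not overlap in any of the 8 groups.

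**Figure D5:**
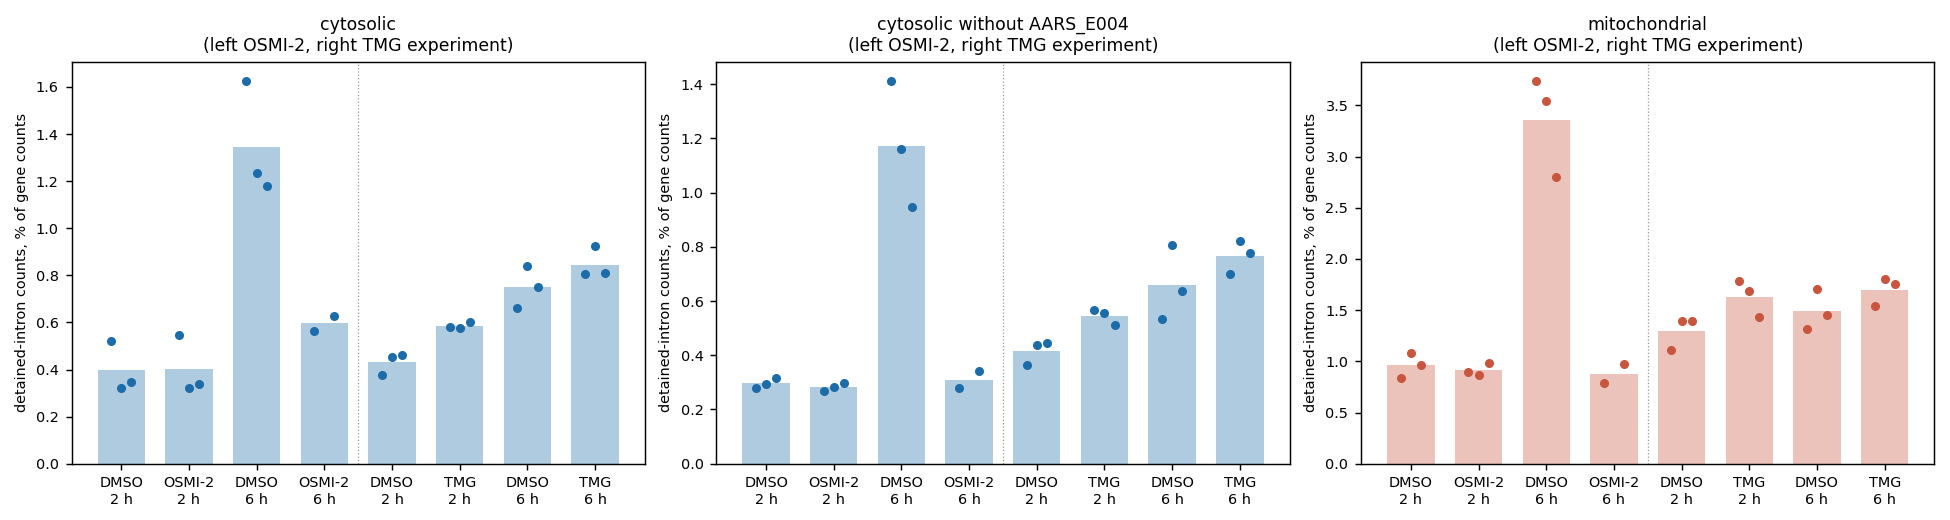
Detained-intron counts as percent of gene counts, from 0 upward, summed over the cytosolic members with all 27 introns and without AARS_E004 (26 introns), and over the mitochondrial members (15 introns), by group; points are libraries and bars group means. In the OSMI-2 experiment the DMSO libraries of 6 h stand above the other groups (cytosolic mean 1.35%, or 1.17% without AARS_E004, mitochondrial mean 3.36%). In the TMG experiment the TMG libraries of 2 h stand above their DMSO libraries in both cytosolic sets and in the mitochondrial set (1.43% to 1.78% against 1.11% to 1.39%).

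Outside detained introns few member bins changed their share of the gene, according to the authors' deposited table of bin usage, whose log2 fold changes and adjusted p are the authors' own. At 6 h of OSMI-2 22 of 656 member bins passed (3.35%), against 4.08% of all such bins. In the authors' deposited table the largest were FARSB_E002 (log2 fold change -2.80), a bin of 10032 bases, VARS_E009 (-1.72) and AARS2_E009 (-1.59), both in the class of alternative 3′ splice sites, proximal part, and IARS_E006 (-1.32). VARS2 had 6 neighbouring bins, E003 to E008, that were higher by 0.23 to 0.34 in the authors' deposited table. With TMG 2 of 642 bins passed at 2 h in the authors' deposited table (0.14% of all bins), IARS2_E001 (-0.20) and AARS_E024 (0.42), both in classes of first exons, and 1 of 623 at 6 h, SARS_E002 (0.28; 0.0565% of all bins). At 2 h of OSMI-2 0 of 664 passed (0.00893% of all bins).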

How the data were processed

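RNA of HEK293T cells was sequenced as stranded polyA libraries, per the labels' protocols. The authors deposited 4 tables, 1 per drug and time, with read counts per bin, and the log2 fold change and adjusted p-value of each bin's usage. Per the file headers these columns carry names of the DEXSeq kind; the submitters' processing notes name STAR and hg19, and the counter, annotation and strand setting are not given in the sources used here. The counts were used as deposited; 1 of the 24 labelled samples, of OSMI-2 at 6 h, was not analysed here, and 0 count columns were left unused. No source says that libraries of a group came from separate cultures, so p-values measure the spread between libraries, which may be technical.

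The bins not marked as detained introns were summed to give a gene's count. Genes were tested with edgeR 4.0.16 (quasi-likelihood, TMM over genes and detained introns, filterByExpr) in R 4.3.3, and introns relative to their gene with limma 3.58.1 on log2((intron + 1)/(gene + 1)) at mean counts of at least 10. Both used Benjamini-Hochberg adjustment over all features and a threshold of 0.05. The SE of a gene's log2 fold change was taken from its F statistic. CPM beside a test are scaled within that comparison. Statistics were tested on simulated data, with 1 spread per comparison for all genes. At 6 h of OSMI-2 the gene test called 10% of 2-fold rises and 16% of 2-fold falls. In the other drug comparisons it called 96% to 100% of both. For introns at 6 h of OSMI-2 these shares were 66% and 40%. The simulation changed 50 genes and 50 introns at each fold tried. In the data at 6 h of OSMI-2 617 genes and 4126 introns passed. The adjusted threshold was thus stricter in the simulation, and its shares do not give the detection rate there. Counts of calls are not compared between drug comparisons. Alternatives were DESeq2 1.42.0, other scalings and filters, pseudocounts, a GC trend removed by loess (span 0.3), 1 fit of all libraries and each library left out.

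The members and all gene lists were chosen with earlier results of these data known. Values per library are given for members past the threshold, for the cytosolic and mitochondrial gene of largest change, and for introns that passed; at 6 h of OSMI-2, where 42 introns passed, only for the 4 largest decreases in each compartment, a departure from that rule. Other members named at 6 h of OSMI-2 were chosen after their values were seen, by an unadjusted p under 0.05 or non-overlap.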

Additional observations from a re-analysis of the deposited data

Results flagged for a closer look

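The effect of OSMI-2 at 6 h exceeded that of TMG at 6 h, by edgeR's quasi-likelihood test of the difference itself, in 7 of 34 members. Of all genes tested 16.9% were higher and 2.97% lower, so the members' share is near the background. With TMM over genes alone 1 member, AARS, was called. The differences on the log2 scale were 1.29 for AARS, 1.04 for FARSA, 1.0 for VARS, 1.0 for GARS, 0.96 for IARS2, 0.88 for WARS2 and 0.74 for TARS2, against a median of 0.36 over all genes tested. Drug and experiment cannot be told apart in this contrast.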

How the results depend on the processing

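No paired analysis was possible because the tables name their columns by letters, which match no replicate number in the labels. No called gene or intron reversed; of 206 counts of calls under an alternative 154 stayed within 1.5 times the main count, and the 56 medians of a compartment moved by less than a typical gene's spread between libraries, although some, near 0, changed sign.

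With all libraries in 1 fit the members called were 15 at 6 h of OSMI-2, 0 at 2 h and 0 at 6 h of TMG, 23 and 6 between DMSO times in the OSMI-2 and TMG experiments, 9 for the OSMI-2 effect over time and 11 for the difference between drugs at 6 h, and introns at 2 h of TMG were 0. With the GC trend removed these genes were 7, 0, 5, 14, 6 and 11 (TMG over DMSO times within 1.5 times). TMM over genes alone gave 0 at 2 h of TMG, 2 between DMSO times of the OSMI-2 experiment and 1 for the drugs' difference at 6 h. Median-of-ratios scaling gave 1 at 6 h of OSMI-2 and 17 for that difference. DESeq2 gave 0 at 2 h of TMG and 1 each for the OSMI-2 and TMG effects over time. The authors' deposited table gave 0 introns at 2 h of TMG. For the 6 h OSMI-2 comparison, 39.5% of all genes tested were higher and 7.54% lower in the fit of all libraries. With the GC trend removed these shares were 11.2% and 10.9%. Shares of all genes are not given here for the other fits, so these counts are not read as results about the members.

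Leaving out 1 library, the members called ranged from 0 to 12 at 6 h of OSMI-2, 0 to 3 at 2 h and 0 to 3 at 6 h of TMG, 3 to 17 and 13 to 18 between DMSO times of the OSMI-2 and TMG experiments, 0 to 7 for the OSMI-2 and 0 to 1 for the TMG effect over time, and 0 to 1 at 2 h and 0 to 29 at 6 h for the drugs' difference. Introns ranged from 0 to 3 at 2 h and 0 to 3 at 6 h of TMG, and 37 to 43 at 6 h of OSMI-2. The counts of 12 at 6 h of OSMI-2, 7 for the OSMI-2 effect over time and 29 for the drugs' difference came without DMSO 6 h library a of the OSMI-2 experiment. In the fits with 12 and 29 members called, 34.2% and 73.0% of all genes tested were higher. Shares of all genes are not given here for the other fits. The cause of these changes was not tested, beyond that library. OSMI-2 at 6 h has 2 libraries, so a fit without either assumes that the lone library varies like the DMSO libraries.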

Other observations

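AARS_E004, the detained intron nearest the 3′ end of AARS, took values in separate ranges across the 23 libraries. In 12 libraries it held 0.320% to 0.925% of the gene and in 11 libraries 2.44% to 3.46%, with a ratio of 2.64 across the gap. The high libraries in the OSMI-2 experiment were DMSO 2 h library a, OSMI-2 2 h library a, DMSO 6 h libraries a and c and both OSMI-2 6 h libraries, and in the TMG experiment TMG 2 h library c, DMSO 6 h libraries a and c and TMG 6 h libraries a and b. High and low libraries thus occurred together in 6 of the 8 groups. The other detained intron of AARS, AARS_E009, had no such gap (widest ratio between neighbouring libraries 1.25). By the largest distance of a library from its group mean, AARS_E004 ranked 4 of 3267 introns with mean counts of at least 20 (1.89 on the log2 scale). The cause was not tested.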
